A study of Xenopus tropicalis with 2 samples.

Results

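The outer nuclei described here came from early gastrulae (stage 10.5) of wild-type Xenopus tropicalis, fixed in formaldehyde, and the RNA of each nucleus was barcoded and counted as UMIs (unique molecular identifiers, 1 per captured molecule). Whole embryos were pooled before nuclei were isolated, and the 2 samples are sublibraries 1 and 2 of that pool, so they share genotype, stage, embryos and preparation and differ only in the portion of nuclei sequenced. No treatment was compared, single embryos cannot be told apart, and the sublibraries are not replicate embryos. With 1 pool there is no test between groups, every interval below covers counting error only, and a mean ± SD over the sublibraries (n = 2) measures technical spread.

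The nuclei were chosen by their own RNA. Of 8474 barcodes with at least 1500 detected genes, 1808 had at most 8000 UMIs, at least 10 UMIs of rabgap1l, grhl1 and krt7 together, which mark the outer cell layer in these data, and at most 1 UMI of creb3l4. Each was scored by its UMIs of tspan1, f3, kcnip1 and sox2 over its total UMIs, 508 had at least 2 of the 4 genes, and the 300 highest were taken. They are called high-score nuclei and are compared with the 1508 other outer nuclei, to ask whether they are the neural part of the outer layer. These 8 genes chose the nuclei, so their levels are description.

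At gastrulation the Xenopus ectoderm is layered, with a superficial epithelial layer joined by tight junctions over an inner, deep layer. On the dorsal side, where organizer signals lower BMP activity, both layers become neural and express SoxB1 factors such as sox2 and sox3. Elsewhere BMP signalling turns on epidermal regulators such as tfap2a, gata2 and dlx genes. An outer neural nucleus would therefore be looked for among nuclei with epithelial genes, SoxB1 genes and low epidermal regulators.

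The highest score was 41.8 score UMIs per 10000, from 14 UMIs, and the median high-score nucleus had 10.9 per 10000, from 5 UMIs. The last nucleus taken stood at 6.565 and the first left out at 6.553, and 526 of the other outer nuclei had none of the 4 genes. Of the 300, 198 had 2 of the 4 genes, 90 had 3 and 12 had all 4.

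The 4 score genes were carried unequally. f3, on chromosome 4 (103452161 to 103462311 in the RefSeq annotation of UCB_Xtro_10.0), encodes tissue factor, the cell-surface starter of blood clotting, and was found in 282 of the 300 nuclei. sox2 (chromosome 5, 108035485 to 108037707), the SoxB1 factor of neural progenitors, was found in 172. tspan1 (chromosome 4, 92915644 to 92926143), a tetraspanin membrane protein, was found in 160. kcnip1 (chromosome 3, 32022733 to 32226088), a calcium-binding partner of Kv4 potassium channels, was found in only 100.

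UMIs were summed over each group of nuclei and scaled to a common total, as counts per 1e6 UMIs (CPM). f3 stood at 631 and 676 in sublibraries 1 and 2 of the high-score nuclei and at 177 and 150.9 in the other outer nuclei. sox2 stood at 182 and 195 against 45.4 and 57.1. tspan1 stood at 224 and 166 against 22.3 and 28.9. For kcnip1 the levels were 179 and 136 against 24.2 and 24.1. No pair of sublibrary values overlapped between the groups, which the choice of nuclei fixes.

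Whether the 4 genes mark 1 population was examined by choosing nuclei with 3 of the genes and reading the fourth, which the choice then did not use. tspan1 was 2.22-fold higher (95% exact interval 1.81 to 2.71) in nuclei chosen by the other 3 genes, at 97.6 against 44.0 CPM. f3 was 1.49-fold higher (1.32 to 1.68), in the 184 nuclei that could be chosen without it. sox2 was 1.25-fold higher (1.03 to 1.52), at 88.4 against 70.5 CPM, and by 0.49 and 0.14 on the log2 scale in the 2 sublibraries. kcnip1 was 1.17-fold higher, with an interval (0.893 to 1.5) that includes no difference. Of the 4 ratios, that of tspan1 alone passed 2-fold, with 1.22 and 0.89 on the log2 scale in sublibraries 1 and 2, the latter under 2-fold. Median depth in the f3 comparison was 5120.5 UMIs in the 184 nuclei against 4497.5 in the others.

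The nuclei were outer by genes that the choice did not use. Among the outer layer genes krt70, a keratin, stood at 1266 and 1237 CPM in the high-score nuclei and at 1207 and 1252 in the other outer nuclei, against 71.9 CPM in inner neural nuclei. epas1, a hypoxia-inducible transcription factor subunit that is abundant in outer nuclei, stood at 12301 CPM against 11260, and at 451 in inner neural nuclei. Inner neural nuclei are here the 189 with the highest levels of pde7b, ak1 and bmpr1b and at most 3 UMIs of the layer genes. Like the other reference groups named below, they were picked by 3 leading genes of an earlier clustering of the same nuclei, so those groups are no independent evidence.

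Median depth was 4426 UMIs in the high-score nuclei and 4605.5 in the other outer nuclei. Scrublet, which scores barcodes that look like 2 merged nuclei, placed 4.33% (exact interval 2.33 to 7.3) of the high-score nuclei above a score of 0.15 and 10.9% (9.41 to 12.6) of the others. Across the series the sublibraries held 44341256 and 44026454 UMIs, and 4245 and 4229 barcodes with at least 1500 genes. They shared 206 of those barcodes, of which 0 were high-score nuclei and 9 were other outer nuclei.

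Few genes were much higher in the high-score nuclei, and more were lower. A gene was counted when summed CPM (with 5 CPM added) differed at least 2-fold, the direction was the same in both sublibraries and the mean CPM of the groups was at least 20. Of 4630 genes tested, with the 8 choosing genes left out, 5 were higher (0.108%) and 84 lower (1.81%). Direction alone, without a size limit, was higher in both sublibraries for 28.0% of genes and lower in both for 32.1%. These shares are the ones to set beside each count below of list genes higher or lower than in the other outer nuclei. A count near them does not set a list apart from all genes.

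The 5 higher genes were pgm5, plekhg7, slco4c1, emilin2 and b4galnt4. pgm5, a phosphoglucomutase relative that sits at cell adhesion sites, stood at 28.7 and 38.2 CPM against 8.69 and 6.49, a 4.42-fold difference (2.94 to 6.62). Its 48 UMIs came from 30 of the 300 nuclei, and the 10 highest held 58.3% of them. plekhg7 stood at 177 and 183 CPM against 73.3 and 77.9 (2.38-fold, 2.04 to 2.76). Both were higher in each sublibrary, and plekhg7 varied little between them, with a log2 difference of 1.2 ± 0.02 (SD, n = 2).

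slco4c1, an organic anion transporter, stood at 208 and 247 CPM against 102 and 101 (2.24-fold, 1.96 to 2.56). emilin2, an extracellular matrix glycoprotein, stood at 86.1 and 95.4 against 38.8 and 42.5. b4galnt4, a sugar transferase, rested on 49 UMIs, at 25.8 and 42.3 CPM against 13.0 and 14.6, and was past 2-fold in 11 of 18 alternatives, with 0.43 on the log2 scale after thinning to 2500 UMIs. pgm5, plekhg7, slco4c1 and emilin2 were past 2-fold in 17, 17, 14 and 15 of the 18. With the score from sox2 alone these genes differed by 0.81, 0.77, 0.73 and 0.37 on the log2 scale, all under 2-fold. slco4c1 was under 2-fold without sox2 in the score as well (1.74-fold). Of all 4630 genes tested, 98 were also at least 2-fold higher, at a mean of at least 20 CPM, in inner neural than in inner epidermal nuclei. The latter are the 77 inner nuclei with the highest mettl24, arhgap42 and epha3. Of the 5 higher genes 3, plekhg7, slco4c1 and emilin2, were among the 98. pgm5 was under the mean of 20 CPM but higher in inner neural nuclei as well, at 32.3 CPM (21.9 to 45.9) against 2.49 (0.063 to 13.9, from 1 UMI). slco4c1, for one, stood at 209 CPM in inner neural nuclei and at 84.6 in inner epidermal nuclei.

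Below them, and under the 2-fold limit on this scale, came LOC100492804, nav3, ugcg, ccno, foxj1, nipal4, unc79, itga6, megf11 and zc4h2. ugcg, the first enzyme of glycosphingolipid synthesis, stood at 371 CPM against 193. nipal4, a membrane protein of the skin barrier in mammals, stood at 628 against 358. itga6, an integrin subunit of epithelia, stood at 210 against 120. zc4h2, a zinc finger protein of neural development, stood at 117 against 66.9. The sign of 2 of the 10 turned with the choice of score genes, megf11 to -0.59 on the log2 scale with sox2 alone and nav3 to -0.01 without sox2.

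foxj1 and ccno, which drive the making of motile cilia, rested on few nuclei. foxj1 stood at 32.2 CPM against 16.3, but its 46 UMIs came from 18 nuclei, and the 10 highest held 82.6% of them. Of its UMIs, 13 came from 3 of the 18 nuclei that lack f3. In the 200 highest scores its log2 difference was -0.20. ccno stood at 55.9 CPM against 28.6, from 54 nuclei. In the ventral endoderm reference group (slc12a3l, LOC101733480 and slc5a8.1) foxj1 reached 145 CPM and ccno 61.5, and their part in the difference was not tested.

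The lower genes were of several kinds. The 15 lowest were ano10, epha5, slc12a3l, abca12, dscaml1, tsga10, khdrbs2, rspo3, pidd1, lhx1, tm6sf1, frzb, chrd.1, gata2 and cpxm2. dscaml1, a cell adhesion protein, stood at 87.5 and 169 CPM against 661 and 621. chrd.1, the BMP antagonist chordin of the organizer, stood at 35.9 and 45.0 CPM against 174 and 169 (4.23-fold lower, 3.25 to 5.6). gata2, a BMP-induced epidermal and blood regulator, stood at 33.0 and 13.6 CPM against 104 and 102 (4.46-fold lower, 3.15 to 6.52).

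Both groups held 2 kinds of nuclei with markers of other cells or states, and the other outer nuclei held more of them. At least 3 UMIs of dscaml1 were found in 7 high-score nuclei and in 147 others (2.33% against 9.75%). At least 2 UMIs of the mesoderm, organizer or endoderm genes chrd.1, tbxt, rspo3, lhx1, slc12a3l and gata6 were found in 32 and 327 (10.7% against 21.7%). With the dscaml1 nuclei left out of both groups, 40 genes were lower (0.874%) and 4 higher (0.0874%). Without both kinds, the marked nuclei below, 23 were lower (0.510%) and 6 higher (0.133%). Of the 15 lowest genes, gata2 alone was then past 2-fold, but 5 of the 15 (dscaml1, chrd.1, rspo3, lhx1 and slc12a3l) are marking genes whose loss the removal fixes, while plekhg7 and slco4c1 differed by 1.28 and 1.48 on the log2 scale.

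Epidermal regulators were lower as a group. Of 8 epidermal transcription factors tested, 7 were lower in both sublibraries and 1, tp63, was higher, with a median log2 difference of -0.56, beside -0.01 over all genes tested. tfap2a, an AP-2 factor of surface ectoderm, stood at 667 and 556 CPM against 897 and 960. dlx5, a homeobox factor of the neural border and epidermis, stood at 67.1 against 128, klf5 at 155 against 255 and grhl3, a barrier regulator, at 1797 against 2477. Only gata2 passed 2-fold. The whole list of 14 genes summed to 3346 CPM against 4859, and 1 of the 14 had no UMI in the high-score nuclei.

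The BMP response genes were lower throughout. All 11 tested were lower in both sublibraries, with a median of -0.62 and with bmp7.1 and bmper past 2-fold. bmp7.1, a BMP ligand, stood at 138 and 113 CPM against 362 and 384 (2.98-fold lower, from 179 UMIs). smad7, an inhibitory Smad that BMP signalling induces, stood at 289 CPM against 481 (and at a log2 difference of 0.02 with sox2 alone), and ventx1.1, a ventral homeobox repressor, at 56.6 against 90.8. Of the BMP antagonists and dorsal signals, both genes tested, chrd.1 and frzb, were lower past 2-fold, and neither was past 2-fold without the marked nuclei, of which chrd.1 is a marking gene.

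Early neural transcription factors were higher by a smaller amount. Of 10 tested, 6 were higher and 2 lower in both sublibraries, with a median of 0.32 and 0 past 2-fold, and the 25 genes measured summed to 2170 CPM against 1811 (1.2-fold, 1.15 to 1.25), with 5 of the 25 at 0 UMIs in the high-score nuclei. sox3, the SoxB1 partner of sox2, stood at 191 and 194 CPM against 141 and 144, with a log2 difference of 0.42 ± 0.01 (SD, n = 2). sox11, a SoxC factor of neural progenitors, stood at 340 CPM against 246, and gmnn, which encodes geminin, at 552 against 429. pax3 and irx1 were lower, at 16.1 against 27.4 and 79.0 against 82.8.

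Neural plate surface and signalling genes did not follow. Of 10 tested, 3 were higher and 6 lower in both sublibraries (median -0.31), beside 28.0% higher and 32.1% lower of all genes. lrp2, an endocytic receptor of neural epithelium, stood at 174 and 172 CPM against 97.8 and 107 (1.68-fold, 1.45 to 1.95). The receptors fgfr2, fgfr4 and epha4 were lower, with epha4 at 464 CPM against 907. Without the marked nuclei the log2 difference of epha4 was 0.23, on the other side of 0. The sum of the whole list differed by -0.49 on the log2 scale, and by -0.16 without the marked nuclei.

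**Figure D1:**
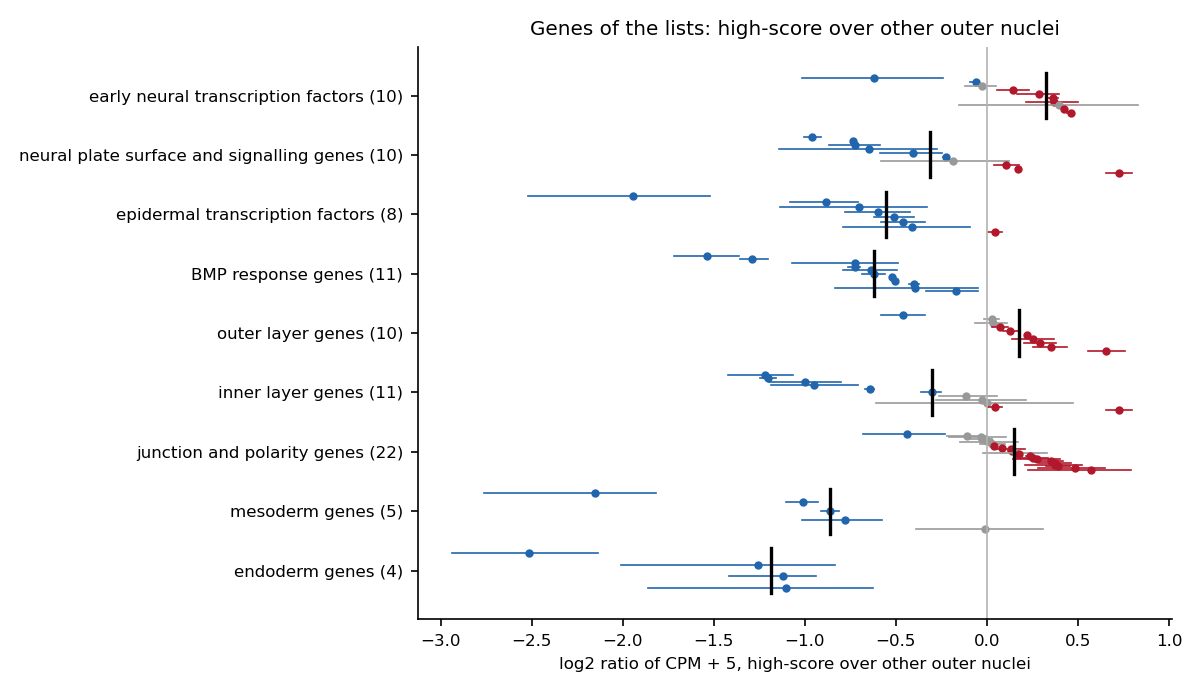
Log2 ratio of CPM + 5 (x axis) of each tested gene of 9 lists (y axis, number of genes in brackets), high-score over other outer nuclei; points are both sublibraries summed, thin lines join the 2 sublibraries, black bars are list medians, red marks genes higher and blue genes lower in both sublibraries. Epidermal and BMP response genes lie to the left of 0 except tp63, and early neural factors mostly just to the right, with a median of 0.32.

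Epithelial genes were slightly higher. Of 22 junction and polarity genes tested, 14 were higher and 1 lower in both sublibraries (median 0.15), with 0 past 2-fold. pard3, a polarity scaffold, stood at 2026 CPM against 1565, and dsc3, a desmosomal cadherin, at 110 against 77.2. Of 10 outer layer genes 7 were higher and 1, grhl3, lower. Inner layer genes were lower in 6 of 11, led by fn1 and col18a1, and higher in 2. The 4 endoderm genes tested were lower in both sublibraries, and 4 of 5 mesoderm genes were, tbxt among them at 75.5 CPM against 157. Without the marked nuclei the log2 differences were 0.35 for tbxt, 0.29 for fn1, -0.03 for gata6 and -0.05 for slc12a3l, of which tbxt, gata6 and slc12a3l are marking genes, and the outer layer sum was level (-0.01).

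Relatives of the score genes were mostly too low to compare. None of the 14 measured tissue factor pathway genes and none of the 8 Kv4 channel and kcnip genes reached the level needed for the test, and they summed to 8.39 CPM against 8.67 and to 27.3 against 26.3, with ratio intervals of 0.475 to 1.81 and 0.716 to 1.47. Of 8 tetraspanins tested, 4 were higher and 1 lower (median 0.07), and the list summed to 1.08-fold (1.03 to 1.14). Of 10 cell cycle genes 2 were higher and 2 lower. Of 6 FGF response genes 3 were higher and 0 lower (median 0.26), and of 8 SoxB1 and pluripotency genes 6 were higher and 2 lower (median 0.21). All 5 cement gland and outer secretory genes tested were lower (median -0.56). Of 4 genes tested in the dscaml1 and tp73 list, 3 were lower and 0 higher (median -1.22). The sum of that list differed by -0.06 on the log2 scale without the marked nuclei, of which dscaml1 is a marking gene. The remaining lists were mixed, with 2 higher and 3 lower of 7 posterior genes and 3 higher and 5 lower of 9 Notch pathway genes.

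The high-score nuclei were also set beside 2 defined groups of outer nuclei, each smaller than the 1508, so counts of genes past a fold are not comparable with those above. These were the 285 outer nuclei with the highest creb3l4, ugt3a2 and fes, and the 300 with the highest astl2d.1, golga7b and astl2c, of which 271 and 296 are among the other outer nuclei. Against the creb3l4 group, 90 of 4508 genes tested were at least 2-fold higher (2.00%) and 81 lower (1.80%), and 32.9% were higher and 29.0% lower in both sublibraries. All 8 early neural factors tested were higher in both sublibraries, 3 of them past 2-fold, and 7 of 8 epidermal factors were lower, 5 past 2-fold. Against the astacin group, 110 of 4515 genes were higher (2.44%) and 50 lower (1.11%), with 31.4% higher and 30.7% lower in both sublibraries at any size. There 6 of 9 early neural factors were higher and 3 lower, and 7 of 9 epidermal factors were lower. BMP response genes were closer to these groups than to all other outer nuclei, with medians of -0.37 (10 of 11 lower) against the creb3l4 group and -0.22 (6 of 10 lower, 3 higher) against the astacin group.

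In that comparison sox3 stood at 192 CPM in the high-score nuclei and 72.3 in the creb3l4 group, and sox11 at 340 and 134. slco4c1 stood at 228 and 23.4. gata2 stood at 23.1 and 191, and tfap2a at 610 and 1360. ag1, a secreted protein of the cement gland and anterior outer ectoderm, stood at 177 and 504. The order of sox3 levels was inner neural at 267, high-score at 192, other outer at 142, astacin at 116 and creb3l4 at 72.3 CPM, and the intervals of neighbours in that order did not overlap, save those of the other outer nuclei (134 to 151.1) and the astacin group (99.2 to 136).

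**Figure D2:**
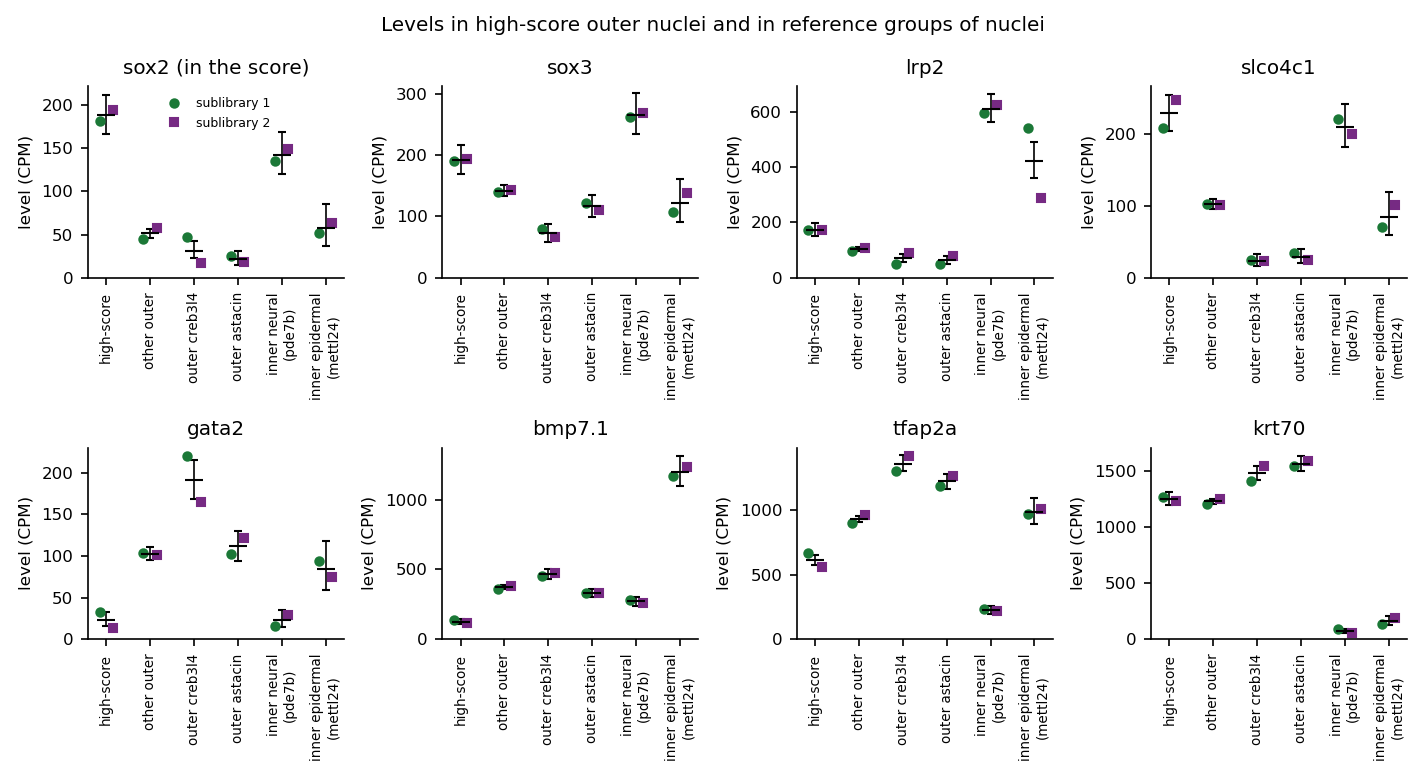
Level in CPM (y axis) of 8 genes in 6 groups of nuclei (x axis): horizontal marks are summed levels with exact 95% intervals, circles and squares are the 2 sublibraries. The high-score nuclei lie between other outer and inner neural nuclei for sox3, level with inner neural nuclei for slco4c1 and gata2, below every other group for bmp7.1, and with the outer groups for krt70.

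A wider set of genes was taken from inner nuclei, which the score did not touch. Between inner neural and inner epidermal nuclei, 133 genes were at least 2-fold higher in the neural and 138 in the epidermal group. The genes apart between these inner groups include gata2 and bmp7.1, already given above, so the set is not separate from the earlier lists. Of the 110 epidermal-side genes tested in outer nuclei, 10 were past 2-fold lower in the high-score nuclei, beside 1.81% of all genes. In both sublibraries 81 were lower (73.6%, beside 32.1% of all genes) and 11 higher. The lower ones included prdm1, a zinc finger transcription factor, at 55.2 CPM against 132, has1, a hyaluronan synthase, at 125 against 254, and trim29, at 93.0 against 213.

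The neural side moved less. Of 98 neural-side genes tested, 3 were past 2-fold higher and 4 past 2-fold lower, beside 0.108% and 1.81% of all genes. The 3 are plekhg7, slco4c1 and emilin2, already counted above. In both sublibraries 34 were higher (34.7%, beside 28.0% of all genes) and 20 lower (20.4%, beside 32.1%), with a median of 0.05. The higher ones included lrig3, a leucine-rich repeat membrane protein, at 1170 CPM against 837, and rgma, a repulsive guidance molecule and BMP co-receptor, at 833 against 627. prtg, protogenin, was lower, at 10.5 against 44.9. Against the creb3l4 group, 50 of 87 neural-side genes were higher (57.5%, beside 32.9% of all genes). There 82 of 105 epidermal-side genes were lower (78.1%, beside 29.0%). Without the marked nuclei, 35 of 90 neural-side genes were higher (38.9%, beside 27.7% of all genes) and 80 of 104 epidermal-side genes lower (76.9%, beside 30.4%). Of those 90 neural-side genes, 15 were lower in both sublibraries (16.7%, beside 30.4%). In that setting 3 of the 90 were past 2-fold higher and 0 past 2-fold lower, beside 0.133% and 0.510% of all genes. These gene sets were drawn up after the first results were seen.

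**Figure D3:**
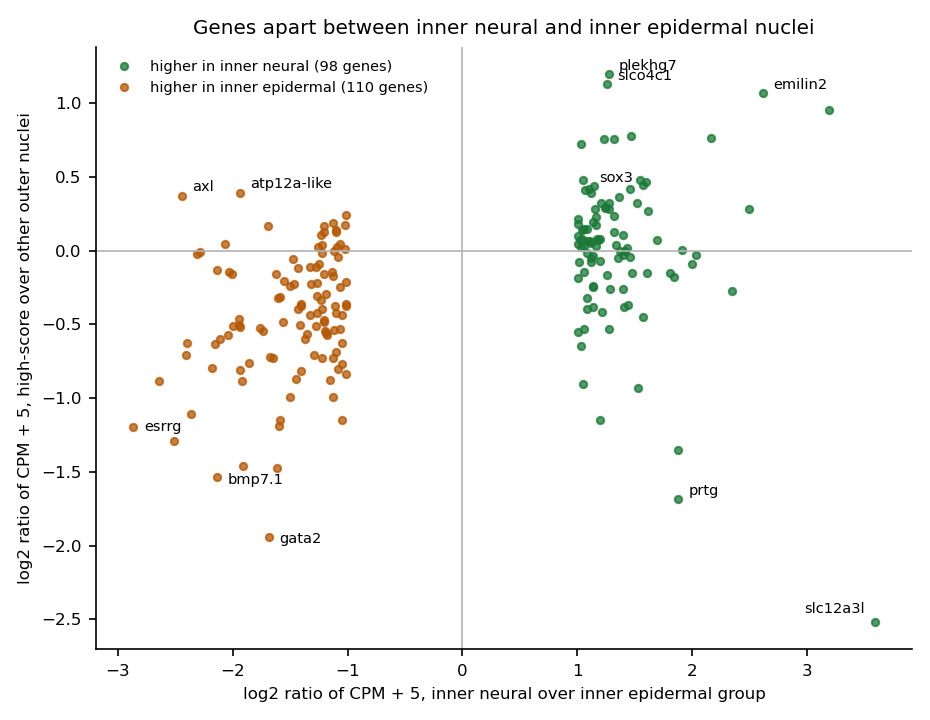
Each point is a gene at least 2-fold apart between inner neural and inner epidermal nuclei (x axis, log2 ratio of CPM + 5), with its log2 ratio of CPM + 5 between high-score and other outer nuclei on the y axis. Most of the 110 epidermal-side genes lie below 0, while the 98 neural-side genes spread to both sides of 0.

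Scores with and without sox2 picked sets of nuclei that overlapped only in part. With the score made from tspan1, f3 and kcnip1 only, 208 of the 300 nuclei were the same. sox3 was then level with the other outer nuclei, at 151.4 against 150.2 CPM (1.01-fold, 0.87 to 1.17), while lrp2 was 1.87-fold higher and gata2 and bmp7.1 stood at 40.9 against 99.9 CPM and 167 against 367. The early neural factors summed to 2007 against 1841 CPM. Over 4607 genes, 0.0434% were at least 2-fold higher and 1.82% lower. Of the inner neural-side genes 33 of 96 were higher (beside 26.6% of all genes), and of the epidermal-side genes 73 of 109 were lower (beside 36.6%).

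The 152 outer nuclei with at least 2 sox2 UMIs shared 75 nuclei with the 300, so these sets overlap and are drawn from the same outer nuclei. Entry differed, by a count of sox2 UMIs here and by at least 2 of the 3 genes in the set without sox2. Median depth was 4983 UMIs in the 152 against 4515 in the rest, and 4709.5 against 4504.5 for the set without sox2. In the 152, sox3 stood at 284 against 137 CPM (2.07-fold, 1.79 to 2.39). not, a notochord and dorsal midline homeobox gene, stood at 120 against 50.2, and cdx2, a posterior homeobox gene, at 170 against 72.8. Posterior genes summed to 1650 against 1035 CPM, where the set chosen without sox2 had 887 against 1132. Of the other score genes, kcnip1 was lower in the sox2 nuclei, at 23.8 against 47.9 CPM. tspan1 was higher there, at 82.6 against 50.1 (1.65-fold, 1.25 to 2.14), as was f3, at 290 against 239 (1.21-fold, 1.05 to 1.39). BMP response genes were level with the rest (0.985-fold, 0.925 to 1.05), though gata2 and tfap2a were lower in both sets. Markers of other layers moved with sox2 as well: inner layer genes summed to 2348 against 1909 CPM (1.23-fold, 1.17 to 1.29), mesoderm genes to 794 against 602 (1.32-fold), outer layer genes to 0.868-fold and epas1 to 0.787-fold. Their part in the sox3 difference was not tested. Over 4687 genes, 0.512% were at least 2-fold higher and 0.811% lower, and 33 of 96 neural-side genes were higher (beside 35.8% of all genes) and 75 of 108 epidermal-side genes lower (beside 27.7%).

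**Figure D4:**
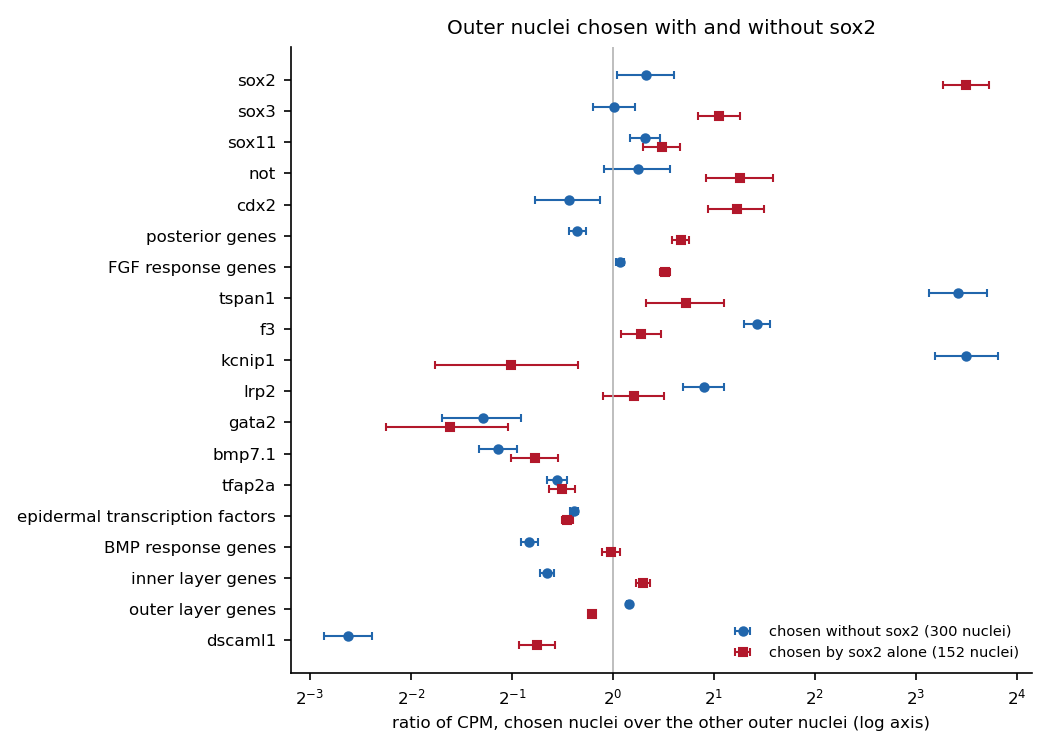
Ratio of CPM on a log axis (x axis) for 19 genes and lists (y axis), chosen outer nuclei over all other outer nuclei, for 300 nuclei chosen by tspan1, f3 and kcnip1 and for 152 chosen by sox2; bars are exact 95% intervals, and the score genes themselves are shown as description. For sox3, not, cdx2 and the posterior genes the interval lies wholly above 1 only in the sox2 nuclei, and epidermal factors lie to the left in both.

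Differences by sox2 ran through the 300 too. The 172 with a sox2 UMI had sox3 at 235 CPM and the 128 without at 136, and posterior genes at 1276 and 777. The sox2 nuclei also had endoderm genes at 131 against 46.5 CPM, mesoderm genes at 498 against 337, inner layer genes at 1.37-fold and dscaml1 at 166 against 81.8, whose part was not tested. kcnip1 was the reverse, at 66.9 and 274 CPM, which the requirement of 2 genes partly fixes. The 160 with a tspan1 UMI had tfap2a at 440 CPM against 814 in the 140 without, and lrp2 at 222 against 113, with endoderm genes at 126 against 56.7 and mesoderm genes at 507 against 334. sox3 did not separate them, at 204 and 178 CPM (ratio interval 0.899 to 1.47). The 100 with a kcnip1 UMI had lower sox3, at 144 CPM against 219 in the 200 without (ratio interval 0.496 to 0.864). Their bmp7.1 stood at 174 against 98.6 CPM and their epidermal factors at 3642 against 3184. lrp2 was higher in them, at 215 against 149, and mesoderm genes were lower, at 248 against 526. The requirement of 2 genes also shapes this split, with sox2 at 73.0 against 252 CPM.

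The 300 were uneven in epidermal regulators. The summed epidermal factors had quartiles of 10.0, 25.3 and 56.6 UMIs per 10000 over the high-score nuclei and of 29.6, 49.0 and 68.4 over the others. Fewer than 20 per 10000 were found in 134 of 300 nuclei (44.7%, exact interval 39.0 to 50.5) and in 251 of 1508 others (16.6%, 14.8 to 18.6). In steps of 10 per 10000, the fullest step was 0 to 10 in the high-score nuclei, with 25% of them, and 40 to 50 in the others, with 14.2%.

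The high-score nuclei were therefore set out in 3 groups of 100 by that sum, a grouping chosen after its values were seen and a range, not a type, with 24 nuclei within 2 per 10000 of the limit between the low and the middle group. The low group had at most 13.3 per 10000, the high group at least 45.2. tfap2a stood at 72.1 CPM in the low group and 1247 in the high group, by construction. Of the layer genes that chose outer nuclei, grhl1 stood at 155 and 2100, krt7 at 464 and 1552 and rabgap1l at 3767 and 4292. The median nucleus had 18.5 UMIs of the layer genes in the low group and 34.5 in the high group. The low group thus lay nearer the limit of 10 UMIs. Outer nuclei with low epidermal factors could therefore fall below that limit more often, which was not tested. Shares of nuclei with low epidermal factors given in this report hold only among nuclei that passed it. krt70 stood at 1253 and 1281 and epas1 at 11960 and 12544.

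Genes outside the sum separated the groups too. slco4c1 stood at 487 and 493 CPM in the sublibraries of the low group and at 44.7 and 43.3 in the high group (11.1-fold, 7.1 to 18.3). lrp2 stood at 261 against 75.6 CPM, plekhg7 at 324 against 56.7 and sox11 at 433 against 187. bmp7.1 was lower in the low group, at 65.5 and 23.3 CPM against 216 and 236.

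sox3 differed less, at 235 CPM in the low and 155 in the high group (1.51-fold, 1.12 to 2.06). sox2 differed within its counting error, at 201 and 151.2 CPM (ratio interval 0.971 to 1.84). Of the other score genes, tspan1 was higher in the low group, at 282 against 151.2 CPM (1.87-fold, 1.39 to 2.52). f3 was level, at 647 and 664 CPM (0.975-fold, 0.83 to 1.14). kcnip1 was lower in the low group, at 119 against 191 CPM (0.622-fold, 0.437 to 0.877). fgf8, a ligand expressed at the dorsal and marginal side, stood at 380 against 168. foxj1 stood at 84.8 against 8.40 CPM, and at 28.1 in the 84 low nuclei that were not marked. Dorsal mesoderm and organizer genes were higher in the low group too, at 337 against 149 CPM (2.26-fold, 1.7 to 3.04). Mesoderm genes (632 against 346, 1.82-fold), not (127 against 58.8) and inner layer genes (1.27-fold) were also higher. Outer layer genes were at 0.835-fold. Lists and single genes given here can share UMIs, as foxj1 is counted in the organizer list, so they are not separate observations. Among the mesoderm genes tbxt differed within its counting error, at 97.6 against 75.6 CPM (1.29-fold, 0.816 to 2.05). The part of all these genes in the differences between the groups was not tested.

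Low epidermal regulators were not particular to the high-score nuclei. Of the other outer nuclei 172 (11.4%) fell within the limit of the low group, and 108 of them were not marked. In those 108, sox3 stood at 246 CPM, sox11 at 513 and krt70 at 1236. The 84 low high-score nuclei that were not marked had sox3 at 242, sox11 at 447 and krt70 at 1327, each with an interval that overlapped that of the 108. slco4c1 stood at 219 CPM (181 to 263) in the 108 against 449 (385 to 521) in the 84. pgm5 stood at 19.1 against 66.4 and plekhg7 at 198 against 345 (289 to 408), and for each of these genes the intervals did not overlap. But slco4c1, pgm5 and plekhg7 had been picked as higher in the high-score than in the other outer nuclei. The 84 and the 108 are parts of those groups, so that choice favours a gap in this direction. Whether the gap goes beyond that choice was not tested. Conversely the 100 high-score nuclei with high epidermal factors had slco4c1 at 44.1 CPM and sox11 at 187, beside 45.8 and 174 in the 838 other outer nuclei above the same limit.

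**Figure D5:**
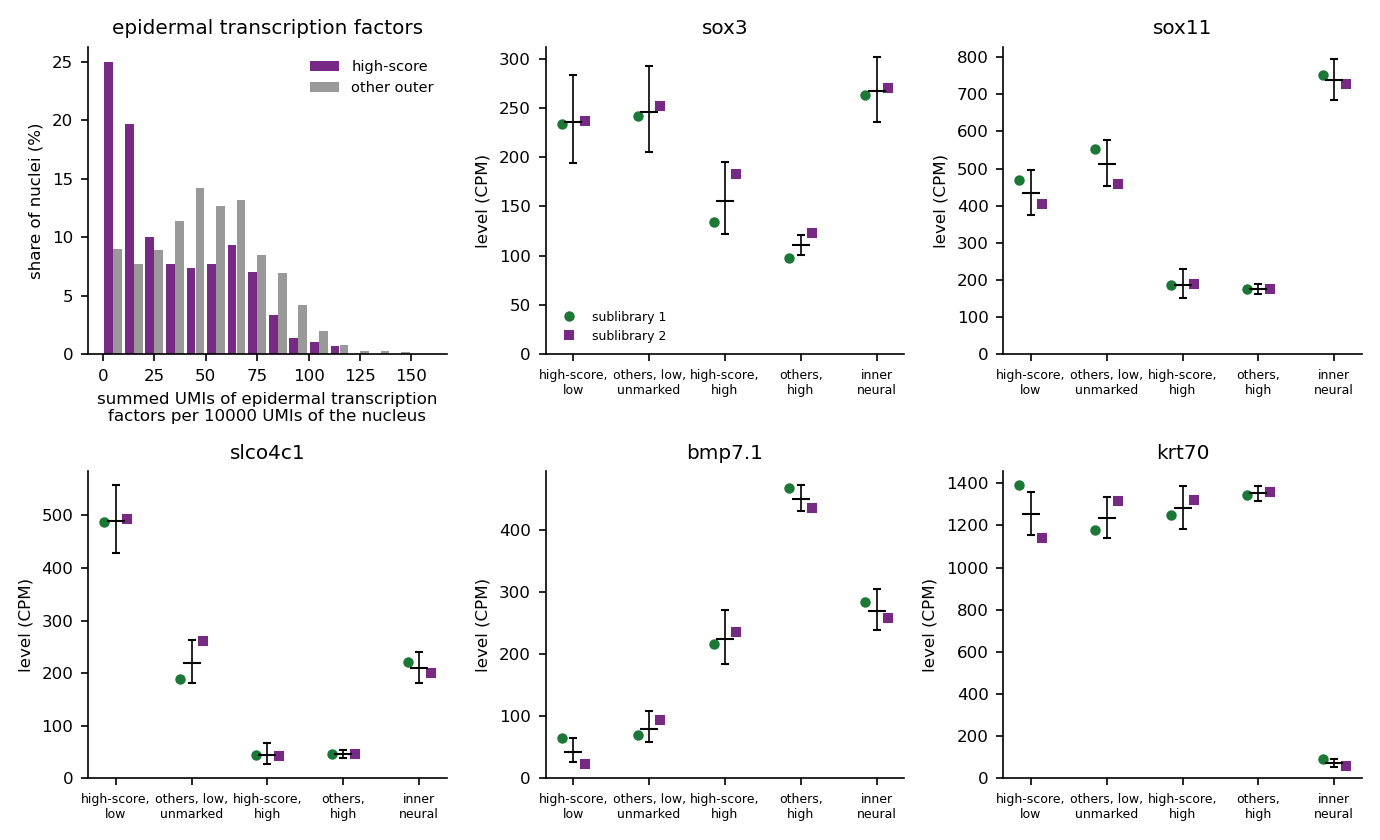
First panel, share of nuclei (%) by summed epidermal factor UMIs per 10000, in steps of 10, for high-score and other outer nuclei; other panels, level in CPM of 5 genes with exact 95% intervals and both sublibraries, in the 100 low and 100 high high-score nuclei, the 108 low unmarked and 838 high other outer nuclei, and inner neural nuclei (horizontal marks are summed levels). sox11 and slco4c1 are higher in low nuclei of both kinds than in high nuclei of both kinds, while krt70 separates all outer nuclei from inner neural ones.

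In single nuclei thinned to 2500 UMIs, sox3 was found in 35.7% (exact interval 30.2 to 41.4) of the high-score nuclei, 27.9% (25.6 to 30.2) of the other outer nuclei and 43.4% of inner neural nuclei. Dorsal endoderm nuclei (foxp2, frzb2 and cdh12), which should lack it, gave 8.50% (4.6 to 14.1). Without thinning the shares were 51.0%, 41.1%, 63.0% and 20.3%, at median depths of 4426, 4605.5, 4860 and 5198 UMIs, and 0 nuclei were too shallow to be thinned. The intervals of the high-score and the other outer nuclei met at their ends.

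On the question whether the 300 are outer neural ectoderm, the measurements were mixed. Outer markers krt70 and epas1 were at outer levels, sox3 was higher and epidermal and BMP-induced genes were lower than in other outer nuclei. In the 152 nuclei chosen by sox2 alone, epidermal factors were lower too (0.732-fold). There BMP response genes were level (0.985-fold), epas1 was at 0.787-fold and outer layer genes were at 0.868-fold. Yet sox3 was level once sox2 was left out of the score. Epidermal factors under 20 per 10000 were found in 134 of the 300 (44.7%) and in 16.6% of the other outer nuclei. By construction 100 of the 300 formed the high group, with at least 45.2 per 10000. Of the other outer nuclei, 44.2% had at most 45.16 per 10000. The 300 are therefore called by their score here and given no cell type name. At this depth a nucleus with no UMI of sox2 or sox3 cannot be read as lacking the gene.

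The levels also changed with the score beyond the 300. The next 300 nuclei by score had early neural factors at 2259 CPM, beside 2170 in the 300 and 1546 in the 526 nuclei with no score gene. Epidermal factors rose from 3346 to 4211 CPM in the next 300 and stood at 5557 in the 526. sox3 went from 192 through 171, 156 and 149 over the first 4 groups of 300 to 113 CPM, and dscaml1 from 129 to 1133. Only a group of 82 nuclei with the lowest scores above 0 broke the order for epidermal factors, at 4294 CPM, and its median depth was 6873.5 UMIs.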

How the data were processed

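Nuclei of pooled wild-type stage 10.5 embryos were barcoded in 2 sublibraries and, per the study's methods, aligned to UCB_Xtro_10.0 with Parse's software. The submitters' processing notes list Seurat and Scanpy 1.9.6. The deposited files hold raw UMI counts per gene and barcode, from before the authors' own normalization and log transform, and tables of other values per barcode. The 2 samples were grouped as sublibraries of 1 pool. Members, gene lists and reference groups were chosen with earlier results of these data known. Counts were summed over nuclei, scaled to CPM and compared as log2 ratios with 5 CPM added, in Python 3.11.15 with numpy 2.4.6, scipy 1.17.1 and scanpy 1.11.5 (Scrublet per sublibrary, nothing removed). Intervals are exact Poisson, conditional binomial or Clopper-Pearson at 95%. The code was tested on simulated data. Named genes are the 15 highest and 15 lowest ratios with 1 sign in both sublibraries, and list genes. Other genes were named after their values were seen, as were the inner neural and epidermal gene set, the outer reference comparisons and the epidermal grouping. Alternatives changed the score, limits, depth, scaling, filter and sublibrary. Totals were 44341256 and 44026454 UMIs. Gene positions are RefSeq's. No sequence is printed.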

Additional observations from a re-analysis of the deposited data

How the results depend on the processing

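The number of genes at least 2-fold higher was 5 and moved to 2 with the score without sox2, 24 with sox2 alone, 2 with the 500 highest scores, 3 with at least 15 layer UMIs, 3 at a mean CPM of at least 50 and 9 with no filter. With 1 sublibrary left out it was 8 or 16, and the rule on both sublibraries then no longer applies. The number lower was 84 and moved to 38 with sox2 alone, 36 at a mean CPM of at least 50, 139 with no filter, 40 without the dscaml1 nuclei and 23 without the marked nuclei. Taking the 200 highest scores moved the differences of tspan1 and kcnip1, each read when not used in the choice, from 1.07 to 1.34 and from 0.20 to 0.35 on the log2 scale. Among values of at least 1 in size, signs reversed with sox2 alone for tbxt (0.29) and col18a1 (0.44), and without the marked nuclei for lhx1 (0.014), cpxm2 (0.30), tbxt (0.35) and fn1 (0.29); that setting removes nuclei by lhx1 and tbxt themselves, and for the others the cause was not tested. Smaller values that changed sign include megf11 (-0.59) and smad7 (0.02) with sox2 alone, nav3 (-0.01) without sox2, foxj1 (-0.20) in the 200 highest scores and epha4 (0.23) without the marked nuclei. Of 32 values with a log2 ratio of at least 1 in size, 557 of 563 alternatives kept the sign and 467 stayed past 2-fold. sox3 ranged from 0.01 to 1.02, lowest with the score without sox2 and highest with sox2 alone. gata2 ranged from -2.52 to -1.19 and stayed past 2-fold in all 18 alternatives run. b4galnt4 fell to 0.43 when nuclei were thinned to 2500 UMIs. No paired analysis was possible because both samples are sublibraries of 1 pool and no groups of samples were compared. Genes with a mean of the groups under 20 CPM are beyond what this depth resolves. A gene could pass that filter through the other outer nuclei, as epha5 did with 13 UMIs (9.09 CPM) in the 300. Levels that rest on fewer than about 30 UMIs in the 300 nuclei are imprecise.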
